A study of Danio rerio with 12 samples.

Results

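The genes described here are the 200 whose expression differed most between zebrafish of the same genotype, in whole brains of females aged 6 months that carried a mutation of *psen2* or did not. They were chosen by measured values. CPM (counts scaled to the library total) were computed over the counts outside the mitochondrial chromosome, each value was taken as log2(CPM + 0.5), and genes with an exonic length of at least 300 bp and a mean of at least 5 CPM over the 12 fish were ranked by their standard deviation (SD) within genotype, which is the root of the mean of the 3 genotype variances. Of 32057 genes in the table, 13311 were eligible, and the 200 with the largest SD are the members. Because the SD chose them, the SD and the pattern of each member across fish are descriptions and carry no test. The genotype means were not used in the choice, and their differences were tested. The spread within genotype enters the error of that test, however, so a large error among the members follows from the choice.

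The study sequenced RNA from the brains of fish heterozygous (Het, psen2S4Ter/+) or homozygous (Hom, psen2S4Ter/S4Ter) for the S4Ter allele of *psen2* and of wild-type siblings (WT, psen2+/+), with 4 fish and 4 libraries per genotype. *psen2* encodes a presenilin, a catalytic subunit of gamma-secretase, and the allele is a small deletion that places a stop codon near the start of the reading frame. All 12 fish were female siblings of one family raised in one tank, from a pair of Het parents in a Tübingen background, and 1 library was made per brain. The tissue label is whole brain, whereas the extraction label speaks of pooled larvae. Fish are called by genotype and number, and values are given in the order Het 80, 81, 84 and 89, then Hom 78, 82, 83 and 85, then WT 79, 86, 88 and 95. Every p-value below sets a difference between genotype means against the spread between these siblings.

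A whole fish brain holds regions with different transcription programmes. HOX genes, a family of homeobox transcription factors, are used in the hindbrain and spinal cord, TBR1 is a transcription factor of the dorsal telencephalon, and the pineal organ on the roof of the brain contains photoreceptor cells that use the same signalling proteins as the retina. Genes of the major histocompatibility complex (MHC), which present peptides to T cells, and immune receptor families of fish are known to differ between individuals in sequence and in gene number. For neither kind of gene does the count table say which cells or which copy a read came from.

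Between 11878943 and 17026801 counts were assigned per fish, of which 8834596 to 11938865 lay outside the mitochondrial chromosome. The mitochondrial share of counts was 37.3% to 42.0% in mutants and 25.2% to 32.5% in WT, which is why CPM were taken outside it. A value of 3 counts, taken as the floor, corresponds to 0.251 to 0.340 CPM and covers counting error only. *psen2* itself (ENSDARG00000015540, chromosome 1 of GRCz11 from 51048975 to 51062405) had 214, 182, 202 and 235 counts in Het, 216, 193, 210.0 and 190.0 counts in Hom, against 222, 230.0, 245 and 235 counts in WT. It ranked 10834 of the eligible genes by SD (0.15 on the log2 scale), and because reads of both alleles enter its count it does not check the genotype labels. Of 11 eligible brain markers of neurons, astroglia and myelin, 1 copy of FABP7, a fatty acid binding protein of radial glia, was a member, at rank 197. The markers *mbpa*, SYT1 and ELAVL3 were measured in every fish, the lowest value of these being 621 CPM. Other markers had lower values. The astroglial marker GFAP was not a member but lay close outside the list, at rank 230 with an SD of 0.72. It ranged from 40.0 CPM in WT 88 to 211 CPM in Het 80.

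The SD of the members had a median of 1.37 and a range of 0.79 to 3.71 on the log2 scale, beside a median of 0.22 over the eligible genes. Counting error alone, from the number of reads, had a median of 0.138 in the members and 0.0880 in the eligible genes. The SD exceeded this error at least 4.38-fold in every member, with a median of 10.3-fold, against a median of 2.57-fold over the eligible genes. The members were not highly counted genes, with a median mean level of 11.5 CPM (range 5.01 to 497.9 CPM), against 26.8 CPM over the eligible genes. The last gene inside the list was *zgc:73226* with an SD of 0.7937, and the first outside it was *rln3a*, a relaxin family peptide gene, with 0.7935. Names were available for 193 of the 200, and the other 7 are given by identifier.

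The fish did not contribute evenly. Hom 85 was the fish farthest from its genotype mean in 38 members, Hom 78 in 34 and Het 84 in 31, whereas the other 9 fish each held this place in 7 to 17 members. Hom 78 lay below its genotype mean in all 34, Hom 85 in 24 of 38 and Het 84 in 14 of 31. Over the eligible genes, Het 84 was the farthest fish in 35.0%, Hom 85 in 3.44% and Hom 78 in 8.92%. The scaling factor of Het 84 by TMM, a normalization that trims extreme genes, was 0.847, against 0.993 to 1.03 in the other fish, and 193 of the 200 genes were again chosen when TMM scaling was used. The CPM printed here are not TMM scaled, so values of Het 84 read somewhat low in general. How often Het 84 was the lowest Het fish over all eligible genes was not counted. Counts of this kind below are therefore not read as particular to a group. In 37 members (18.5%) 1 fish held more than 50% of the within-genotype sum of squares, beside 11.8% of the eligible genes. Among the members, the largest of the 3 genotype SDs was that of Het in 50 (25%), of Hom in 84 (42%) and of WT in 66 (33%), beside 44.8%, 18% and 37.2% of the eligible genes.

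When the members were grouped by the likeness of their deviations across fish, a step chosen after their values were seen, 181 fell into 14 groups of at least 4 genes and 19 into none. The heat map of deviations shows these groups. Since grouping sorts the values it describes, the groups carry no test.

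**Figure D1:**
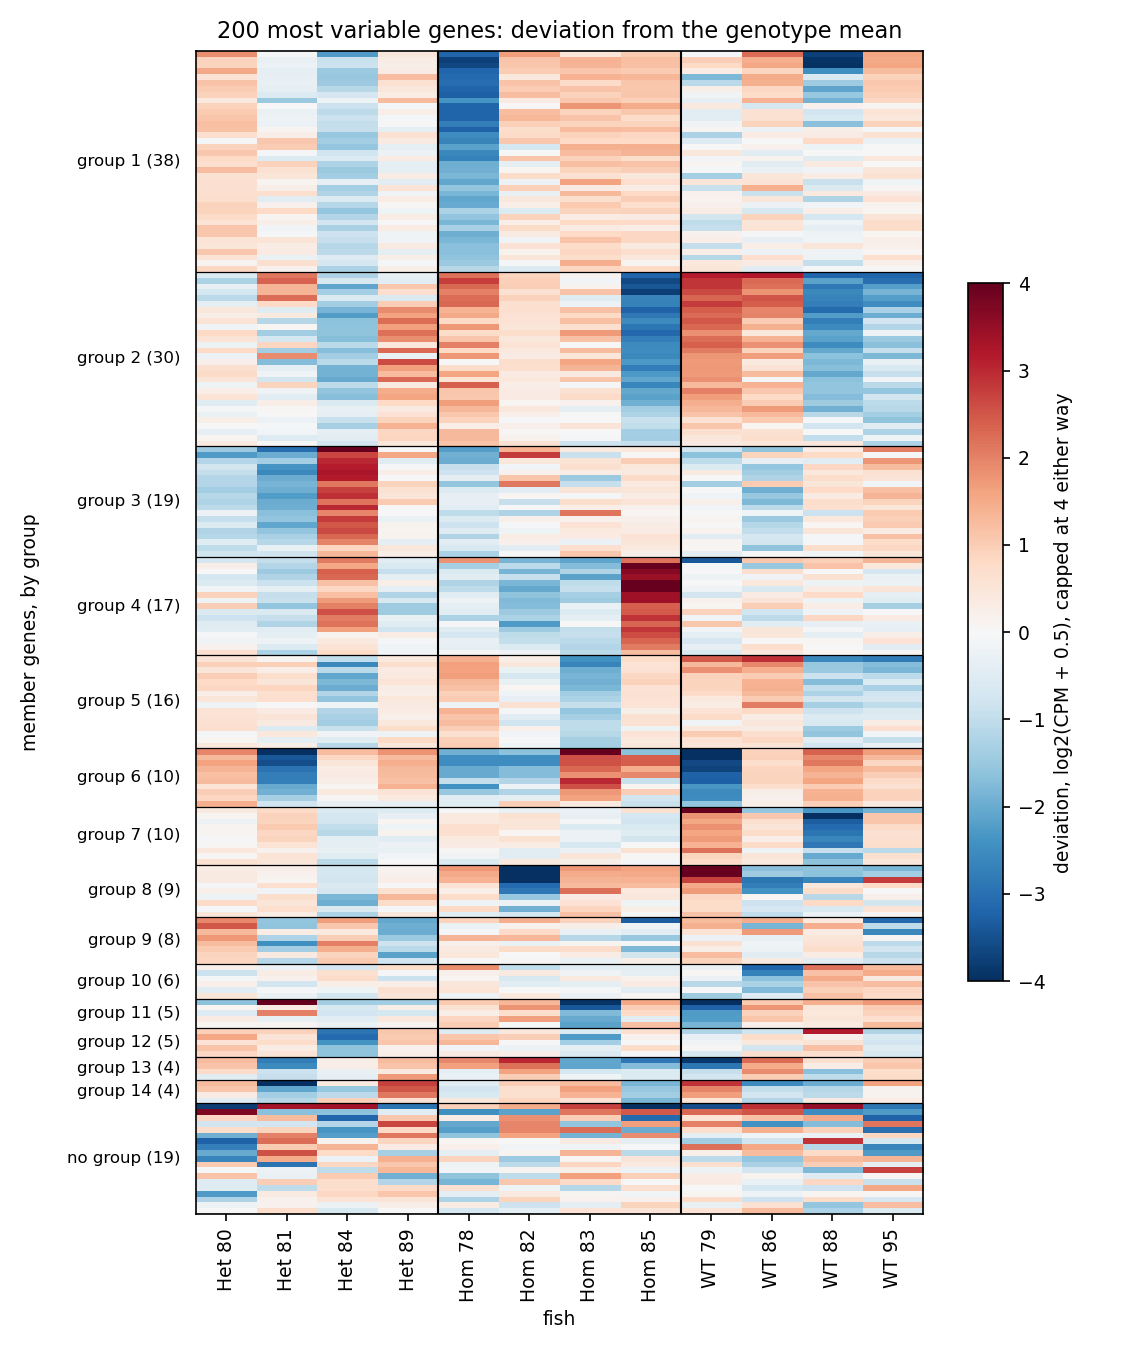
Deviation of each member from its genotype mean on the log2(CPM + 0.5) scale, with 1 line per member ordered by group and 1 column per fish (Het, Hom and then WT), blue below and red above the mean. The 38 genes of group 1 are blue in Hom 78, the 30 genes of group 2 are blue in Hom 85 and mostly in WT 88, the 19 genes of group 3 are red in Het 84, and the 17 genes of group 4 are red in Hom 85.

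The largest group held 38 genes and included the HOX genes. All 9 eligible HOX genes were members, whereas 1.503% of all eligible genes were. The 36 HOX genes with any count summed to 318, 114, 62.7 and 165 CPM in Het, 3.699, 194, 177 and 170.2 CPM in Hom, against 133, 268, 31.5 and 264 CPM in WT. The sum was at its lowest in Hom 78 and next lowest in WT 88, while the other 3 Hom fish lay between 170.2 and 194 CPM. In Hom 78, 23 of the 36 HOX genes had no count, and in WT 88 19 had none. In bulk RNA of this kind, fewer cells of a type and less RNA per cell cannot be told apart.

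The HOXB5 gene with the larger level (ENSDARG00000013057, chromosome 3 from 23707691 to 23710095) had 44.6, 18.8, 12.4 and 28.6 CPM in Het, 0.435, 27.3, 32.1 and 28.3 CPM in Hom, against 32.1, 43.97, 0.577 and 45.97 CPM in WT. Its copy on chromosome 12 (ENSDARG00000054030) had 26.7, 11.9, 7.696 and 16.8 CPM in Het, 0.109, 15.9, 18.9 and 16.8 CPM in Hom, against 15.6, 26.6, 0.0962 and 27.1 CPM in WT. Both were under 1 CPM in Hom 78 and WT 88, and the other 10 fish were higher. HOXB8, a gene of more posterior position in the body axis, had 23.98, 5.97, 0.911 and 8.64 CPM in Het, 0, 14.1, 5.896 and 9.04 CPM in Hom, against 5.77, 31.2, 0 and 19.5 CPM in WT, and was again lowest in Hom 78, WT 88 and Het 84. HOXD3 had no count in Hom 78 either. HOXA3, whose product acts further forward in the hindbrain, had 33.2, 11.8, 6.99 and 14.1 CPM in Het, 0.762, 16.1, 15.3 and 15.3 CPM in Hom, against 11.2, 23.5, 3.56 and 23.7 CPM in WT. Here Hom 78 alone was near the floor and WT 88 was low by comparison with the other WT fish. HOXB8, HOXB3 and HOXB5 lie in 1 run on chromosome 3, where the span of HOXB3 (23697997 to 23771945, same strand) contains that of HOXB5, so that their counts are uncertain where the gene models overlap. HOXC5, HOXC4 and *hoxc1a* lie in 1 run on chromosome 23 between 36118738 and 36190988. They are the only runs of 3 members among which each lay within 100 kb of the next.

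The same group held genes of hindbrain and cerebellar cells and of motor neurons. In all 38 genes Hom 78 was the lowest Hom fish, and in 36 it was the lowest of the 12 fish, while Het 84 was the lowest Het fish in 35. Het 84, with the low TMM factor given above, was also the lowest Het fish in 26 of 30 genes of group 2 and 14 of 16 of the TBR1 group described below. It was instead the highest Het fish in all 19 genes of group 3 and 16 of 17 of group 4. WT fish differed by gene. SLC6A5, the glycine transporter of inhibitory neurons, had 199, 186, 49.6 and 163 CPM in Het, 32.6, 194, 180.1 and 161 CPM in Hom, against 43.9, 158, 138 and 171 CPM in WT, and so was low in WT 79 together with Hom 78 and Het 84. SLC18A3, the vesicular acetylcholine transporter, had 34.5, 19.1, 16.2 and 27.2 CPM in Het, 5.66, 25.6, 30.1 and 24.4 CPM in Hom, against 7.58, 27.8, 15.2 and 28.1 CPM in WT, lowest in Hom 78 and WT 79. In both transporter genes WT 79 was the lowest WT fish, whereas WT 88 was the lowest WT fish in both HOXB5 genes, HOXB8 and HOXA3.

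Calcitonin gene-related peptide, encoded by CALCB, had 19.1, 15.3, 7.49 and 12.9 CPM in Het, 2.07, 10.5, 15.2 and 15.1 CPM in Hom, against 4.19, 12.7, 7.89 and 15.4 CPM in WT. *urp1* and *urp2* encode urotensin-related peptides of neurons that contact the cerebrospinal fluid. *urp1* had 5.97, 2.93, 1.01 and 9.64 CPM in Het, 0, 5.297, 10.8 and 10.4 CPM in Hom, against 0.3396, 7.71, 1.44 and 5.09 CPM in WT, and *urp2* had 9.47, 2.23, 6.08 and 17.7 CPM in Het, 0.762, 7.57, 13.2 and 12.1 CPM in Hom, against 2.38, 8.96, 0.481 and 5.97 CPM in WT. Both were low in Hom 78, *urp1* also in WT 79 and *urp2* also in WT 88, where it had its lowest value. COLQ, which anchors acetylcholinesterase, and the neurofilament genes NEFL and *nefmb* were also in this group, and the neurofilament pair are neighbours on chromosome 8. NEFL had 135, 86.1, 34.8 and 96.5 CPM in Het, 26.1, 149, 96.9 and 98.8 CPM in Hom, against 53.9, 169.7, 55.5 and 130.3 CPM in WT, low in Hom 78, Het 84, WT 79 and WT 88.

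ALDOC, a glycolytic enzyme abundant in cerebellar Purkinje cells, had 76.5, 40.7, 22.2 and 37.7 CPM in Het, 1.63, 18.9, 65.8 and 54.2 CPM in Hom, against 62.03, 29.2, 53.4 and 50.7 CPM in WT. PAX6, a transcription factor used in cerebellar granule cells among others, had 60.3, 35.9, 13.7 and 22 CPM in Het, 6.42, 24.1, 38.6 and 35.7 CPM in Hom, against 72.7, 51.7, 54.8 and 64.4 CPM in WT. *cbln12* is of the cerebellin family of secreted synaptic proteins, and it had 299.6, 354, 78.2 and 144 CPM in Het, 33.7, 103, 307 and 291 CPM in Hom, against 266, 181, 323 and 251 CPM in WT. These 3 genes were lowest in Hom 78. The most highly counted member, *stm*, encodes starmaker, a matrix protein of the otolith, and had 680.4, 247, 112 and 472 CPM in Het, 28.5, 529, 405 and 517 CPM in Hom, against 248, 1427, 196 and 1113 CPM in WT. It was lowest in Hom 78, and its neighbour on chromosome 19, *si:ch211-80h18.1*, was lowest in Het 84. *nppc*, a natriuretic peptide gene, had 8.13, 3.44, 3.14 and 6.13 CPM in Het, 0.435, 4.97, 5.68 and 7.39 CPM in Hom, against 8.15, 10.4, 2.89 and 11.1 CPM in WT. *npas4l*, of the list of immediate early genes, had 5.35, 8.095, 2.94 and 4.62 CPM in Het, 1.09, 3.68, 11.5 and 4.28 CPM in Hom, against 13.02, 11.98, 4.71 and 11.1 CPM in WT, and CASQ2, a calcium-binding protein of the sarcoplasmic reticulum from the muscle list, had 26.7, 12.04, 6.89 and 10.4 CPM in Het, 0.979, 8.43, 20.4 and 22.4 CPM in Hom, against 31.2, 16.5, 23.2 and 23.1 CPM in WT. Both followed the other genes of the group in being lowest in Hom 78.

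Another 16 members included TBR1 and other genes of the telencephalon. In all 16, Hom 83 was the lowest Hom fish, and in 14 Het 84 was the lowest Het fish. Among the WT fish, WT 88 was lowest in 10 and WT 95 in 6, and Hom 78 was the highest of the 12 fish in 14. *emx3*, a homeobox gene of the dorsal telencephalon, had 7.62, 7.59, 0.203 and 6.33 CPM in Het, 15.7, 6.702, 0.322 and 7.19 CPM in Hom, against 4.41, 7.04, 0.192 and 0.0978 CPM in WT. TBR1, a T-box factor of pallial neurons, had 60.1, 51.00, 19.6 and 53.4 CPM in Het, 119.9, 32.1, 9.65 and 58.7 CPM in Hom, against 47.9, 36.6, 4.33 and 3.33 CPM in WT, and EOMES, a related T-box factor, had 97.9, 81.6, 11.2 and 65.00 CPM in Het, 190.0, 37.9, 15.8 and 106 CPM in Hom, against 80.1, 86.4, 22.9 and 20.05 CPM in WT. For these 3 genes Het 84, Hom 83, WT 88 and WT 95 were below the remaining fish of their genotype. LHX6, a factor of interneurons from the ventral telencephalon, had 6.897, 4.76, 4.46 and 11.7 CPM in Het, 17.6, 8.97, 3.22 and 11.8 CPM in Hom, against 10.6, 12.7, 4.91 and 3.33 CPM in WT. BHLHE22, a helix-loop-helix factor, and ADRA1B, an adrenergic receptor, were in the same group.

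Of 4 eligible DLX genes, which act in the ventral forebrain, none was a member, where 1.503% of all eligible genes were. In a list this short 0 is near that share, and nothing is read from it. Their median SD was 0.54, beside 0.22 over the eligible genes. Of 2 eligible EMX genes *emx3* was a member and the other was not. The HOX, DLX and EMX lists were added after the data had been seen. Hom 78 was lowest for HOX genes and highest for most of the TBR1 group, WT 88 was low for both, and Hom 83 was low for the TBR1 group only, as the plot of regional genes shows. Whether the libraries differed in how much of each brain region they contained was not tested.

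**Figure D2:**
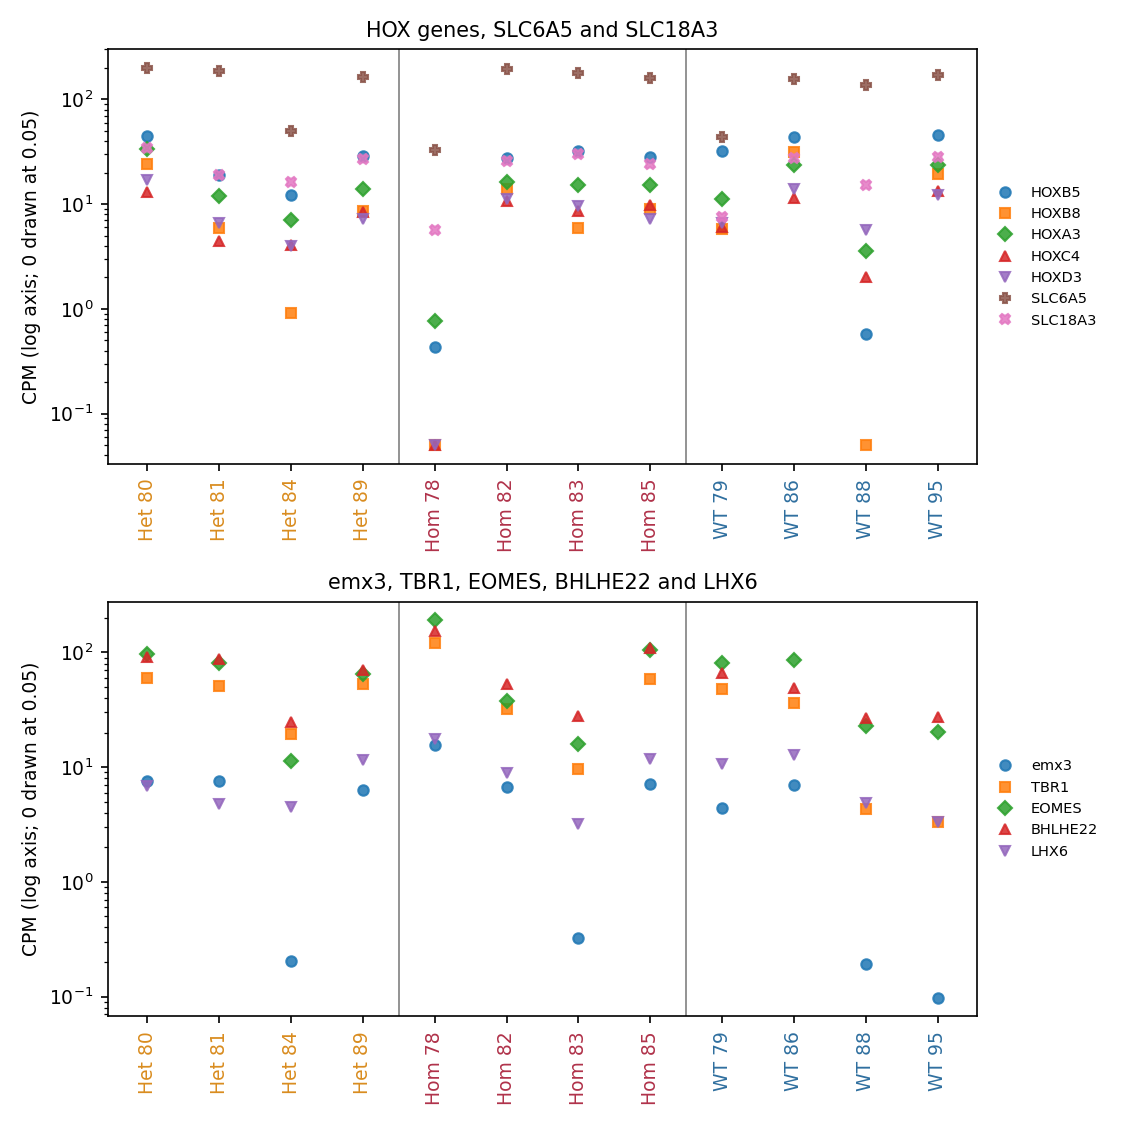
CPM (log axis, with 0 drawn at 0.05) of HOX, hindbrain-type and TBR1-group members in each fish, Het and Hom left of WT. HOXB5 (ENSDARG00000013057) was lowest in Hom 78 and WT 88, and TBR1 was lowest in Het 84, Hom 83, WT 88 and WT 95.

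Phototransduction genes made up the core of the second group, of 30 members. On the list of retinal photoreceptor genes 20 were eligible, and 17 of these (85%) were members, with a median SD of 1.83 over the 20. On the pineal list, 2 of 4 eligible genes were members. Hom 85 was the lowest Hom fish in all 30 genes of the group and Het 84 the lowest Het fish in 26. WT 88 was the lowest of the 12 fish, or tied for it, in 20. The highest of the 12 fish was Hom 78 in 19 genes and Hom 83 in 7.

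Photoreceptor cells of the retina and of the pineal organ share much of their signalling machinery. ASMT, the last enzyme of melatonin synthesis, had 0, 4.45, 0.203 and 0.201 CPM in Het, 23.2, 9.19, 3.11 and 0.292 CPM in Hom, against 15.6, 17.8, 0 and 0.196 CPM in WT, and *rcvrnb*, a recoverin, had 0.618, 6.58, 0.203 and 0.804 CPM in Het, 56.03, 22.4, 13.1 and 0.875 CPM in Hom, against 53.99, 56.5, 0.192 and 0.196 CPM in WT. In both genes the same 6 fish were low, namely Het 80, Het 84, Het 89, Hom 85, WT 88 and WT 95. *saga*, an arrestin that quenches opsins, had 2.26, 8.399, 0.304 and 6.83 CPM in Het, 76.3, 30.6, 16.7 and 0.972 CPM in Hom, against 35.3, 22.4, 0.192 and 0.587 CPM in WT, and *crx*, a transcription factor of photoreceptors, had 0.618, 1.82, 0.101 and 1.21 CPM in Het, 22.7, 7.89, 5.36 and 0.486 CPM in Hom, against 14.4, 9.55, 0 and 0.391 CPM in WT. Both were highest in Hom 78.

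The cone-type genes had a different order of fish. PDE6C, the cone phosphodiesterase, had 14.9, 2.83, 2.23 and 41.99 CPM in Het, 42.00, 31.3, 58.3 and 3.89 CPM in Hom, against 22.9, 9.88, 0.866 and 2.44 CPM in WT. GNAT2, the cone transducin subunit, had 6.28, 2.43, 0.709 and 22.8 CPM in Het, 15.9, 14.5, 23.5 and 2.14 CPM in Hom, against 12.6, 3.02, 0.673 and 2.93 CPM in WT, and ARR3 (ENSDARG00000056511), a cone arrestin, had 14.9, 4.25, 2.84 and 48.7 CPM in Het, 53.3, 46.05, 70.8 and 4.86 CPM in Hom, against 36.6, 12.98, 0.481 and 3.42 CPM in WT. For these 3 genes Het 89 was the highest Het fish and Hom 83 the highest fish of all. GNAT1, the rod transducin subunit, had 3.397, 4.05, 0.911 and 12.8 CPM in Het, 50.2, 20.9, 23.05 and 1.55 CPM in Hom, against 22.2, 11.7, 0.289 and 1.56 CPM in WT, highest in Hom 78. PDE6G, the inhibitory subunit of the phosphodiesterase, had 12.2, 26.4, 6.58 and 18.3 CPM in Het, 250.5, 57.8, 45.7 and 7.48 CPM in Hom, against 44.1, 47.3, 5.58 and 8.22 CPM in WT. The other members from the list were CNGA1, *rbp4l*, GRK7, *pde6ha*, *rbp3* and 1 RPE65 gene, with SDs of 0.90 to 2.21. The rod and cone copies are paralogs, and a read shared by close copies may be lost or misassigned.

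The second ARR3 gene (ENSDARG00000098475) and *rp1l1b* stood apart in a small group of their own with *cbln2a*. ARR3 (ENSDARG00000098475) had 4.74, 1.11, 1.52 and 17.4 CPM in Het, 4.03, 10.3, 17.9 and 2.14 CPM in Hom, against 6.57, 0.838, 0.577 and 1.96 CPM in WT. *rp1l1b* had 13.2, 1.01, 1.72 and 34.96 CPM in Het, 9.25, 25.4, 51.8 and 5.25 CPM in Hom, against 14.7, 1.51, 1.25 and 3.81 CPM in WT. Both were highest in Hom 83 and Het 89 and low in Het 81, WT 86 and WT 88, so that WT 86, high for ASMT and *rcvrnb*, was low for this pair. The 3 eligible genes of the photoreceptor list that were not members were a second RPE65 gene, RGR and *gnb1b*, with SDs of 0.30, 0.29 and 0.11. The summed level of the 20 eligible genes of the list, which includes these, was 448, 417, 329 and 719 CPM in Het, 1290.2, 782, 899 and 365 CPM in Hom, against 699, 535, 317 and 319 CPM in WT.

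Muscle genes formed the third group of 19, with both vitellogenin genes and *npvf*. Of 26 eligible genes on the skeletal muscle list 14 (53.8%) were members. Het 84 was the highest Het fish in all 19 genes of the group and the highest of the 12 in 15, and Het 81 was the lowest of the 12 in 16. *myhc4*, a fast myosin heavy chain, had 2.78, 0.607, 203 and 8.34 CPM in Het, 13.8, 175, 85.98 and 89.1 CPM in Hom, against 10.1, 5.19, 20.97 and 71.00 CPM in WT. *ckma*, muscle creatine kinase, had 1.13, 0.607, 27.6 and 5.93 CPM in Het, 8.05, 8.54, 17.3 and 16.7 CPM in Hom, against 6.57, 1.34, 11.8 and 15.9 CPM in WT, and *actc1b*, a muscle actin, had 5.46, 2.63, 97.7 and 11.7 CPM in Het, 28.7, 39.02, 46.95 and 44.3 CPM in Hom, against 21.1, 10.7, 36.6 and 31.9 CPM in WT. In all 3, Het 84 exceeded the other Het fish, and Het 81 had the lowest value. TNNT3, a troponin of fast muscle, had 3.29, 0.8095, 30.3 and 5.53 CPM in Het, 8.595, 15.3, 23.7 and 19.4 CPM in Hom, against 12.1, 5.11, 12.8 and 25.3 CPM in WT. The further members from the list were *atp2a1l*, *pvalb2*, *pvalb4*, *ckmb*, MYL1, NEB and TNNC2 in this group, and *myhb*, *mybpc2b* and CASQ2 outside it. TTN (ENSDARG00000028213) encodes the giant sarcomere protein titin and had 7.31, 6.27, 140.0 and 11.9 CPM in Het, 12.1, 67.9, 73.3 and 98.6 CPM in Hom, against 9.51, 15.5, 14.7 and 68.4 CPM in WT. The sum of the 26 eligible genes on the list was 423, 385, 893 and 549 CPM in Het, 552, 820.0, 765 and 759 CPM in Hom, against 670.4, 561, 647 and 799 CPM in WT, a sum to which the non-members RYR1, RYR3, *tpm2* and *tpma* contribute in every fish.

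The vitellogenins are egg yolk precursors made in the liver of females under oestrogen. *vtg1* (chromosome 22 from 24730965 to 24738188) had 1.75, 2.23, 68.4 and 30.6 CPM in Het, 3.92, 115, 8.47 and 16.9 CPM in Hom, against 24.8, 146, 136 and 73.5 CPM in WT. *vtg2*, on the same chromosome, which with *vtg1* made up the 2 eligible genes of the egg and ovary list, had 0.618, 0.202, 10.4 and 4.22 CPM in Het, 0.218, 8.76, 0.643 and 2.33 CPM in Hom, against 5.999, 34.3, 23.6 and 15.3 CPM in WT. They varied together, with Het 80, Het 81 and Hom 78 lowest. None of the 4 eligible genes on the list of liver and plasma proteins was a member, where 1.503% of all eligible genes were. In a list this short 0 is near that share, and nothing is read from it. Their median SD was 0.37, beside 0.22 over the eligible genes. *npvf*, a neuropeptide of the hypothalamus, had 3.91, 3.95, 18.6 and 8.64 CPM in Het, 1.31, 3.78, 8.58 and 4.57 CPM in Hom, against 8.38, 10.8, 10.00 and 15.6 CPM in WT.

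Keratin and mucin genes were in the fourth group, of 17. Hom 85 was the highest of the 12 fish in 16 of these genes and the highest Hom fish in all 17, and Het 84 was the highest Het fish in 16. *krt5*, a keratin of stratified epithelium, had 12.2, 4.15, 67.04 and 6.23 CPM in Het, 36.01, 14.8, 23.4 and 689 CPM in Hom, against 39.3, 62.9, 39.2 and 24.7 CPM in WT. *muc5.2*, a secreted mucin, had 0.618, 0.405, 3.14 and 1.41 CPM in Het, 1.63, 0.865, 1.93 and 79.1 CPM in Hom, against 3.17, 4.44, 2.69 and 2.64 CPM in WT, and PPL, the desmosomal linker periplakin, had 4.74, 2.73, 6.38 and 3.62 CPM in Het, 7.72, 6.702, 4.18 and 44.4 CPM in Hom, against 7.24, 15.2, 9.23 and 6.75 CPM in WT. In *krt5* and *muc5.2* the value of Hom 85 lay far above all others, and in PPL Hom 85 was again highest, with a smaller gap. On the skin and epithelium list 5 of 15 eligible genes were members (33.3%), namely *krt5*, *krt97*, *krt91*, *krt4* and PPL. *krt8*, the keratin of simple epithelium, was not and had 226, 256, 201 and 207 CPM in Het, 281, 316, 268 and 272 CPM in Hom, against 254, 289, 196 and 309 CPM in WT. COL10A1 and the desmoglein gene *dsg2.1* were further members of the group. The gene *si:dkey-193p11.2*, also in this group, was the only member that did not pass the expression filter used for testing, with 59.9 CPM in Hom 85 and 0.251 to 2.23 CPM in the other fish.

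**Figure D3:**
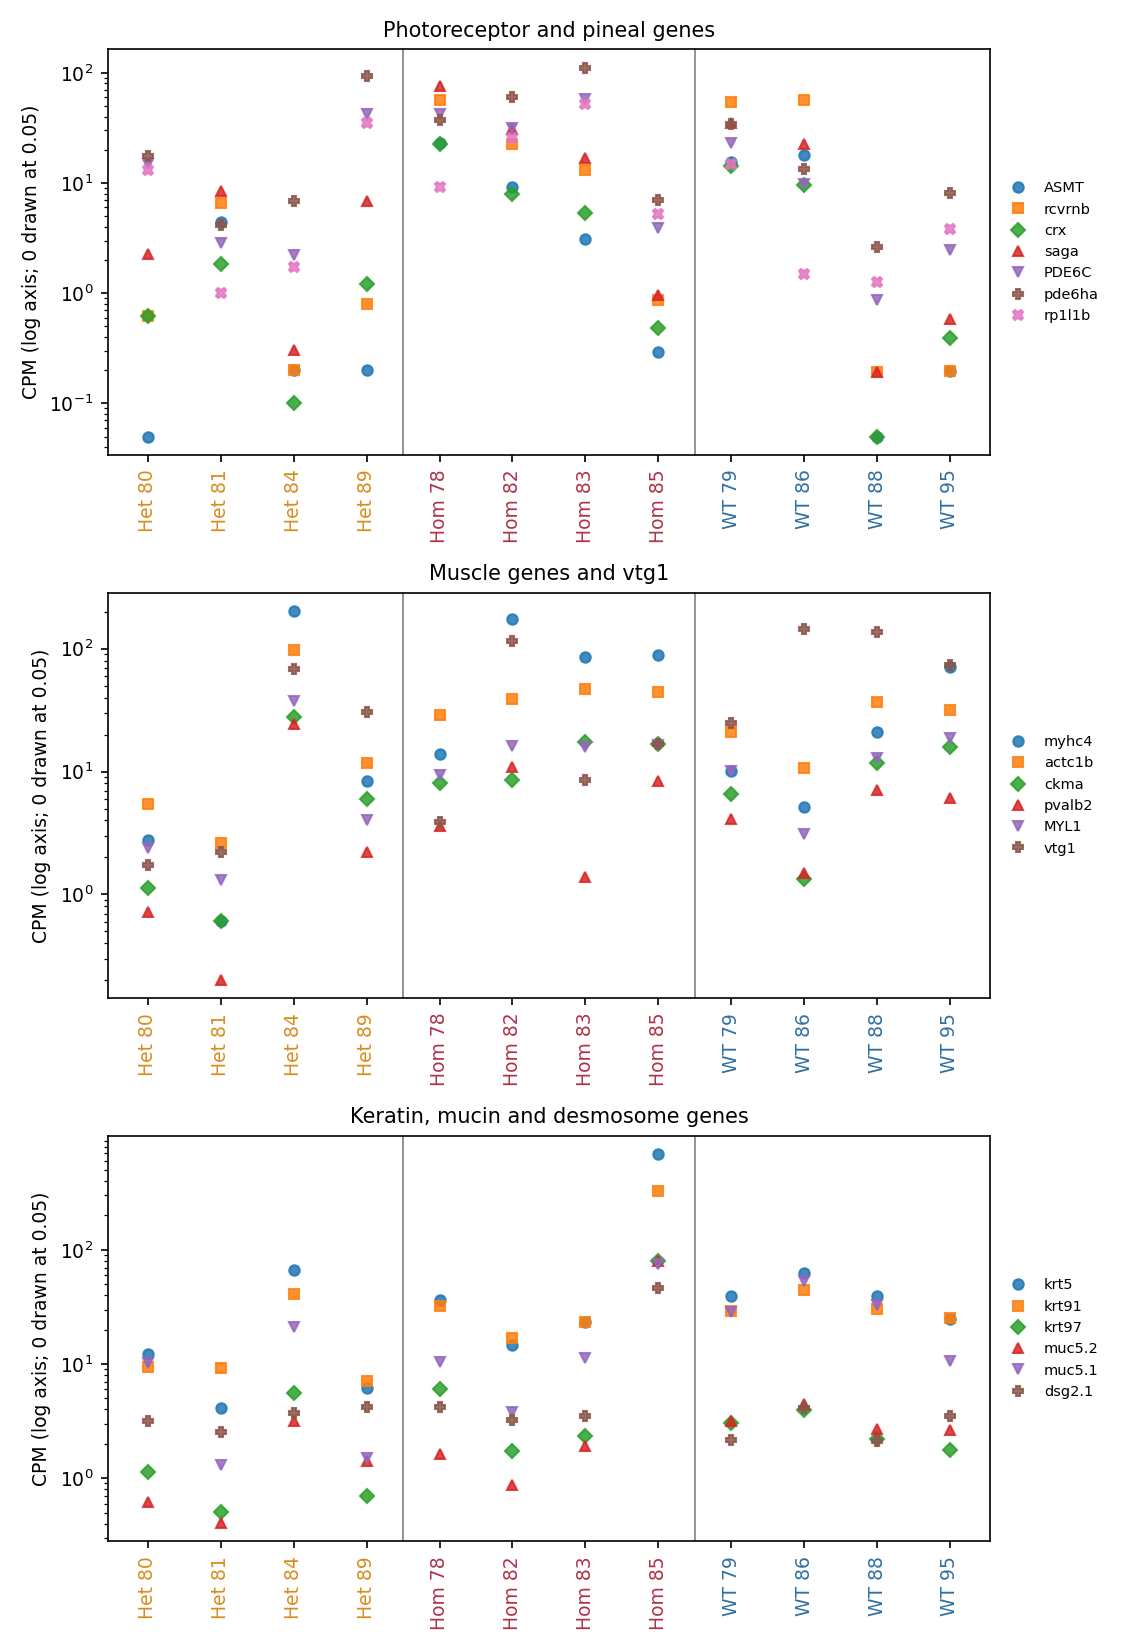
CPM (log axis, with 0 drawn at 0.05) of photoreceptor and pineal, muscle, vitellogenin and skin-type members in each fish, Het and Hom left of WT. *saga* and *crx* were highest in Hom 78 and PDE6C in Hom 83, *myhc4* was highest in Het 84, and *krt5* was highest in Hom 85.

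Several lists of tissues and pathways that might differ between brains gave no member. None was found among 7 eligible genes of the pituitary list, 11 of the erythrocyte list, 20 of the leukocyte list, 14 of the ependymal and choroid plexus list, 21 of the oligodendrocyte list, 3 of the olfactory epithelium list and 41 of the circadian clock list. Since 1.503% of all eligible genes were members, 0 in lists this short is near that share, and nothing is read from it. In the same order, the median SDs of these lists were 0.41, 0.33, 0.27, 0.35, 0.31, 0.17 and 0.21, beside 0.22 over the eligible genes. The haemoglobin gene HBE1 (ENSDARG00000097238), which the erythrocyte list did not match, was a member and had 28.8, 10.6, 27.04 and 3.01 CPM in Het, 1.85, 3.03, 21.9 and 13.4 CPM in Hom, against 20.03, 18.01, 11.3 and 17.3 CPM in WT. Single members came from the immediate early genes (1 of 41), the glucocorticoid and heat shock response (*fkbp5*, 1 of 37), connective tissue (*col1a1a*, 1 of 40) and glutathione and related enzymes (*gpx3*, 1 of 36). *col1a1a*, a chain of type I collagen, had 28.00, 19.1, 64.4 and 66.4 CPM in Het, 78.99, 45.5, 22.9 and 82.5 CPM in Hom, against 29.5, 17.8, 16.3 and 86.8 CPM in WT. *gpx3*, a secreted glutathione peroxidase, had 10.3, 20.04, 3.04 and 30.9 CPM in Het, 18.4, 3.46, 13.7 and 14.9 CPM in Hom, against 13.9, 8.12, 3.27 and 8.802 CPM in WT, low in Het 84, Hom 82 and WT 88. CRYAB, the small heat shock protein alpha-B-crystallin, was the only eligible gene of the lens list and had 14.8, 0.405, 5.27 and 0.201 CPM in Het, 6.64, 9.296, 9.54 and 7.39 CPM in Hom, against 4.301, 0, 4.42 and 0.391 CPM in WT.

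Of 40 eligible genes on the list of neuropeptide and transmitter genes 6 (15%) were members. Besides those already described, the list added *oxt*, the oxytocin-type peptide of the hypothalamus, on chromosome 5 from 72087619 to 72093253. *oxt* had 4.01, 62.6, 76.96 and 37.6 CPM in Het, 43.1, 34.8, 33.98 and 37.8 CPM in Hom, against 38.9, 24.5, 3.46 and 0.8802 CPM in WT. Het 80, WT 88 and WT 95 had under 5 CPM and the other 9 fish had over 20 CPM. No other member with a gap of this kind had the same low fish. Choline acetyltransferase (CHAT) and the choline transporter SLC5A7 lay just outside the list, with SDs of 0.75 and 0.73.

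Of the members in no group or in small ones, *si:ch211-214b16.4* (rank 6) had 24.9, 0.101, 0.101 and 0.904 CPM in Het, 0.435, 0.649, 21.9 and 27.5 CPM in Hom, against 29.5, 34.4, 0.577 and 0.782 CPM in WT. *ptgr1.1*, a prostaglandin reductase gene, had 38.7, 44.2, 4.25 and 41.5 CPM in Het, 3.16, 64.97, 79.5 and 3.79 CPM in Hom, against 32.7, 55.7, 38.6 and 2.05 CPM in WT, and MSH4, a meiotic DNA repair gene, had 7.41, 10.3, 0 and 8.94 CPM in Het, 5.77, 17.5, 9.65 and 0.0972 CPM in Hom, against 6.34, 10.2, 12.9 and 0 CPM in WT. Het 84, Hom 85 and WT 95 were low in both of these, and Hom 78 was low in *ptgr1.1* only. The FABP7 copy named above had 13.5, 10.9, 2.13 and 9.04 CPM in Het, 11.4, 10.7, 5.68 and 8.36 CPM in Hom, against 3.51, 9.05, 9.14 and 3.42 CPM in WT, and was in a group of 5 genes in which Het 84 was the lowest Het fish for each.

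Some members fell into 2 levels with a gap between them. In 40 members (20%) the sorted log2 values had a gap of at least 2, that is 4-fold on the scale of CPM + 0.5, with 2 to 10 fish below it. All 40 such genes among the 13311 eligible were members, as a gap of that size brings a large SD with it. At least 1 fish was at 3 counts or fewer in 30 of the 40, and none was in the other 10. The 40 include genes given above, such as both HOXB5 genes, *rcvrnb* and TTN (ENSDARG00000028213). Over all members, 64 had at least 1 fish at 3 counts or fewer. The gap was described after the values had been seen.

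The most variable gene was *mhc1uba*, an MHC class I gene on chromosome 19 from 7072854 to 7101100. It had 0, 67.1, 69.1 and 0.402 CPM in Het, 55.2, 80.4, 189 and 0.292 CPM in Hom, against 0, 43.8, 65.98 and 0.293 CPM in WT. The 5 fish Het 80, Het 89, Hom 85, WT 79 and WT 95 had under 1 CPM and the other 7 had over 30 CPM. *mhc2dab* and *mhc2daa* encode the beta and alpha chains of an MHC class II molecule and are neighbours on chromosome 8 between 36466771 and 36475328. *mhc2dab* had 0, 33.4, 0.101 and 0.1005 CPM in Het, 28.8, 34.6, 0.429 and 40.3 CPM in Hom, against 0, 19.1, 25.5 and 31.4 CPM in WT, and *mhc2daa* had 7.93, 48.8, 6.58 and 6.93 CPM in Het, 45.9, 62.05, 10.8 and 66.3 CPM in Hom, against 6.79, 65.8, 45.9 and 64.9 CPM in WT. Both were low in Het 80, Het 84, Het 89, Hom 83 and WT 79, and the 5 fish low in *mhc1uba* were another set. The other 21 eligible genes of the antigen presentation list were not members, and CD74, the invariant chain of class II, had SDs of 0.50 and 0.31 in its copies *cd74b* and *cd74a*. *mhc1uba*, *mhc2dab* and *mhc2daa* were also the only members among 22 eligible genes of a list of polymorphic immune receptor families. That list was matched by symbol prefix. The prefixes did not match the member *nlrc11*, described below, and could not match genes whose names begin with si: or that have no name. *erv*, an endogenous retrovirus locus on chromosome 19 (7966116 to 7968667), had 17.4, 426, 127 and 28.8 CPM in Het, 194, 268, 643 and 118.7 CPM in Hom, against 109, 229, 162 and 18.97 CPM in WT. Its 5 lowest fish were the 5 with under 1 CPM of *mhc1uba*. Which alleles of these genes each fish carried was not analysed here.

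On chromosome 15, *nlrc11*, an NLR-type immune receptor gene, had 66.5, 65.7, 33.3 and 59.7 CPM in Het, 69.1, 0.108, 67.97 and 63.3 CPM in Hom, against 70.7, 0.168, 0.192 and 0.0978 CPM in WT. Its neighbour *si:ch211-181d7.2* had 41.4, 36.3, 19.6 and 36.1 CPM in Het, 39.6, 0.108, 38.3 and 39.3 CPM in Hom, against 33.96, 0.0838, 0 and 0.0978 CPM in WT. Hom 82, WT 86, WT 88 and WT 95 were at or under 3 counts in both. *si:ch211-281l24.3*, on the same chromosome (40137564 to 40175894, with the pair between 42723126 and 42760110), had 141, 189, 73.4 and 74.5 CPM in Het, 128, 112, 112 and 206 CPM in Hom, against 210.2, 0.838, 0.289 and 0.587 CPM in WT. It was low in WT 86, WT 88 and WT 95 only and stayed high in Hom 82. KCNJ13, a potassium channel gene beside it, had 45.6, 38.05, 27.3 and 27.5 CPM in Het, 29.05, 20.8, 24.1 and 43.1 CPM in Hom, against 63.5, 11.4, 6.83 and 6.06 CPM in WT, lower in the same 3 WT fish without reaching the floor.

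Chromosome 22 held more members than any other, with 21 of the 200 (10.50%), beside 3.23% of the eligible genes. Between 6 and 9.9 Mb, 14 of 30 eligible genes were members, and they fell into 2 sets of fish. The first set of 8 genes was low in Het 81, Hom 78, Hom 82 and WT 79, with 5 of the 8 at 3 counts or fewer in each of these fish. *si:ch211-213a13.1* (8979955 to 8996337) had 60.8, 0, 36.6 and 54.8 CPM in Het, 0, 0.108, 68.4 and 0.0972 CPM in Hom, against 0, 29.4, 80.03 and 49.6 CPM in WT. *si:ch211-209l18.4* (rank 8) had 17.4, 0, 7.797 and 15.8 CPM in Het, 0, 0, 15.5 and 14.3 CPM in Hom, against 0, 9.297, 25.5 and 10.2 CPM in WT. ENSDARG00000071629 (7542472 to 7563593) had 12.6, 0, 8.81 and 12.2 CPM in Het, 0, 0, 15.97 and 13.99 CPM in Hom, against 0, 17.3, 34.3 and 21.7 CPM in WT. In *si:ch211-213a13.1*, its neighbour *si:ch211-213a13.11* and *si:dkey-253d23.4* (3.11 CPM) Hom 85 was low as well, whereas ENSDARG00000071629 was high in Hom 85.

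The second set of 6 genes, interleaved with the first along the chromosome, had no count in WT 88 and was present in all other fish. *sc:d217* (7896072 to 8006342) had 20.8, 37.3, 11.6 and 15.4 CPM in Het, 32.5, 37.9, 19.6 and 15.1 CPM in Hom, against 27.4, 16.5, 0 and 16.5 CPM in WT, and ENSDARG00000099511, which overlaps it on the same strand, had 8.13, 18.6, 5.67 and 10.2 CPM in Het, 18.4, 19.8, 13.4 and 7.77 CPM in Hom, against 13.8, 7.203, 0 and 10.2 CPM in WT. The reference for both sets was the mean of the 7 fish other than WT 88 and the 4 fish low in the first set. These 7 include Hom 85, which was low in some genes of the first set. Relative to this mean, the median over the second set was 1.03, 2.104, 0.647 and 0.981 in Het, 2.13, 2.25, 1.16 and 0.975 in Hom, against 1.91, 0.916, 0 and 1.003 in WT. The median over the first set was 1.28, 0.00517, 0.641 and 1.101 in Het, 0, 0.0131, 1.21 and 0.618 in Hom, against 0, 0.988, 1.89 and 1.27 in WT, so that WT 88, without the second set, was the highest fish for the first, and the 4 fish low in the first set were the highest for the second. A complement gene on the same chromosome, *c3b.1* (26180184 to 26236275), had 16.2, 2.33, 11.5 and 29.1 CPM in Het, 0, 1.84, 15.5 and 2.33 CPM in Hom, against 1.81, 18.2, 22.8 and 17.1 CPM in WT. It was low in the 4 fish of the first set and in Hom 85.

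On chromosome 4, which carries large families of related genes, 8 genes were members (4%), beside 3.40% of the eligible genes. *si:dkey-159n16.2* had 22.1, 0.911, 10.7 and 22.3 CPM in Het, 21.4, 45.6, 0.858 and 0.292 CPM in Hom, against 0.566, 73.1, 23.8 and 30.4 CPM in WT, and *si:dkey-156k2.1*, on the same chromosome, had 8.44, 0.202, 4.35 and 8.54 CPM in Het, 7.72, 11.6, 0.107 and 0.292 CPM in Hom, against 0.3396, 16.8, 7.02 and 12.7 CPM in WT. Het 81, Hom 83, Hom 85 and WT 79 were low in both. *si:dkey-29p23.1* had 25.9, 21.6, 11.7 and 23.9 CPM in Het, 22.7, 0, 22.4 and 22.4 CPM in Hom, against 23.9, 0, 0.0962 and 25.04 CPM in WT. Here Hom 82, WT 86 and WT 88 had at most 1 count. Genes of these families, of the chromosome 22 window and of the MHC may share reads with closely related copies, and because only reads with a mapping quality of at least 10 were counted, their levels are uncertain.

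**Figure D4:**
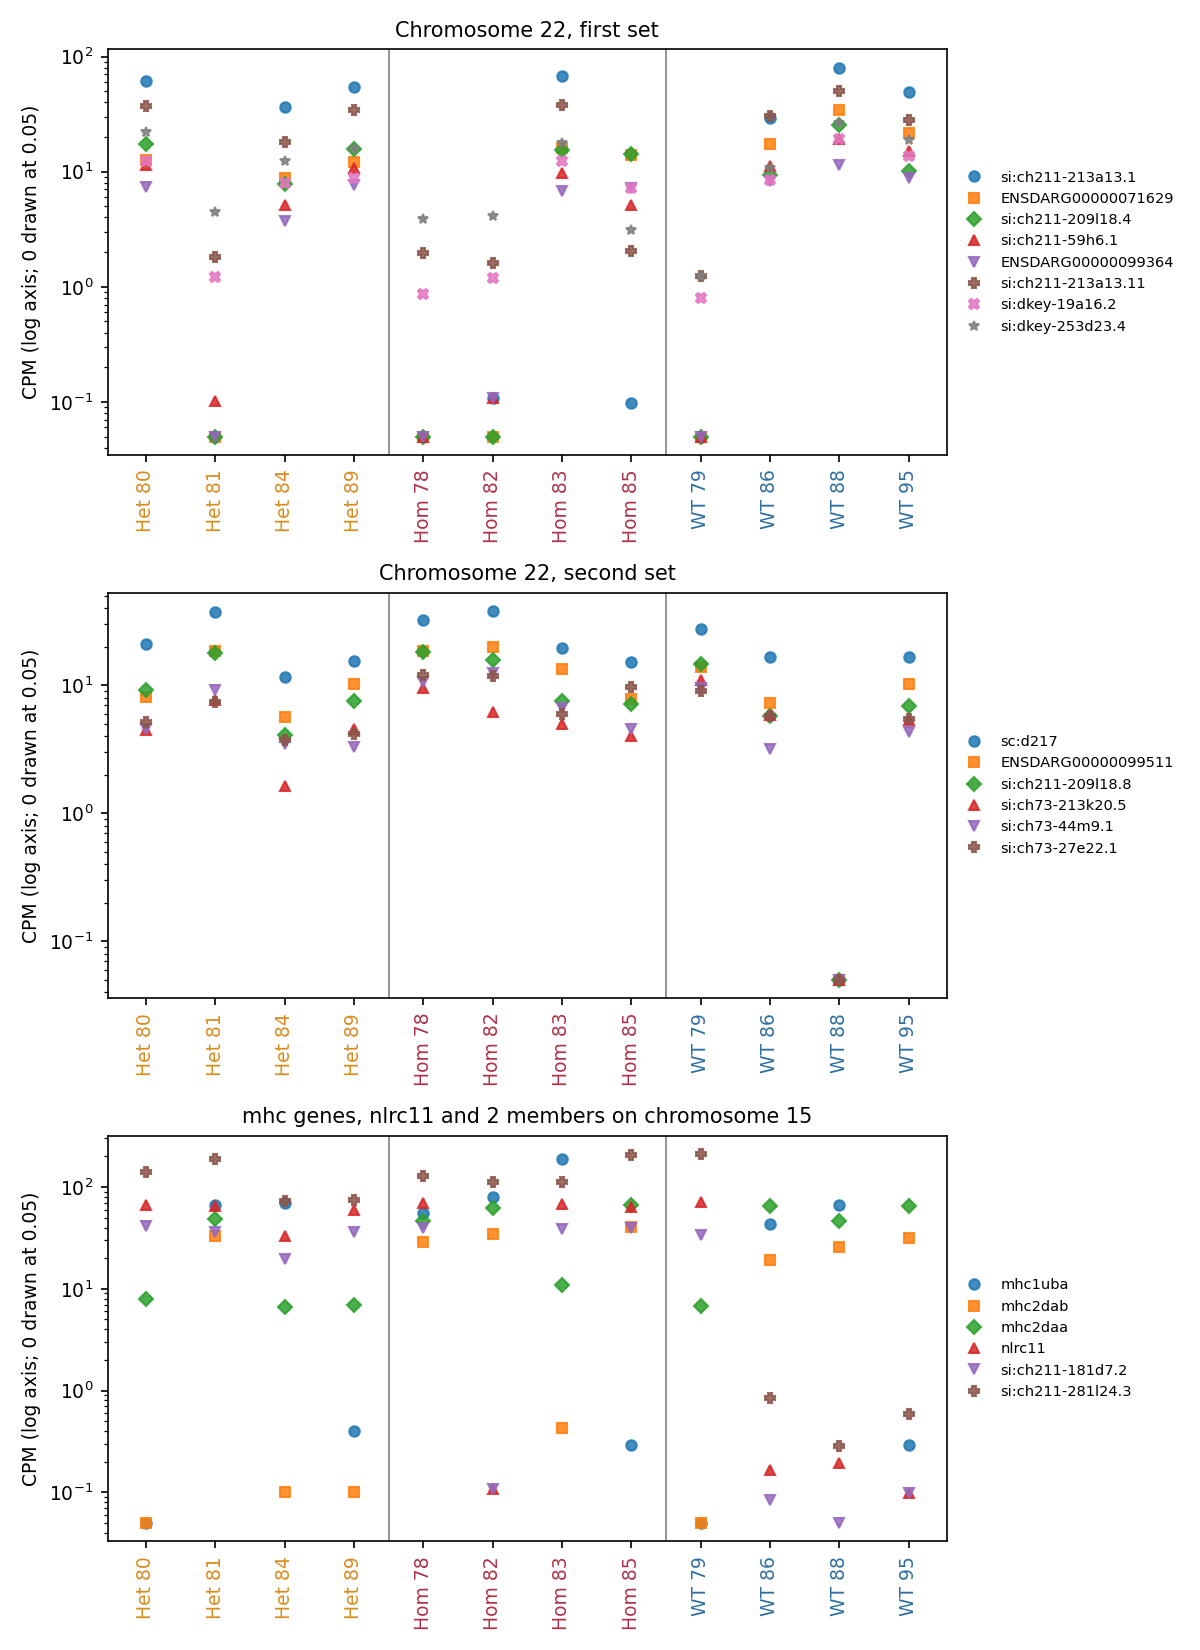
CPM (log axis, with 0 drawn at 0.05) of members on chromosomes 22 and 15 and of mhc genes in each fish, Het and Hom left of WT. The first chromosome 22 set was low in Het 81, Hom 78, Hom 82 and WT 79, the second was at 0 in WT 88, and *mhc1uba*, *mhc2dab* and *nlrc11* were near 0 in 3 further sets of fish.

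Over the whole genome, 32 members (16%) had another member within 100 kb, making 17 pairs and 15 runs of at least 2 genes. Within 10 Mb of *psen2* on chromosome 1 lay 4 members (2%), beside 1.64% of the eligible genes. Single-exon models were 9 of the 200 (4.5%), beside 1.60% of the eligible genes.

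Genotype was compared next, with the spread between siblings as the yardstick. The mean of Het and Hom was set against WT in the quasi-likelihood test of edgeR, fitted over the 17149 genes that passed the expression filter, 199 members among them. At a false discovery rate (FDR) under 0.05, 10 members were called (5.03%), where 31.8% of all genes tested were called. Of these members 4 were higher in mutants, where 15.6% of all genes were, and 6 were lower, where 16.2% were. At an unadjusted p under 0.05 there were 21 members (10.6%), where 43.2% of all genes were. Under the stricter call, which asks for a Bonferroni p under 0.01, or an FDR under 0.01 with a log2 fold change beyond 1 in size, 2 members were called (1.01%) and 2.48% of all genes. Of the 2, 1 was higher in mutants, where 1.5% of all genes were, and 1 was lower, where 0.98% were. Because the members were chosen for a large spread, which enters the error of this test, nothing is read from their lower share. Under the stricter rule the order of the shares also turned round without WT 79 (2.51% of members and 1.29% of all genes), without WT 86 (1.01% and 0.944%) and with at least 10 counts in every fish (3.23% and 2.49%). The median size of the log2 fold change was 0.65 in members with a median standard error (SE) of 0.65, against 0.29 with a median SE of 0.15 over all genes tested. In 6 members the 8 mutant values and the 4 WT values did not overlap (3.02%), where 14.9% of all genes did not overlap. The mutants lay above WT in 1 of them, where 5.65% of all genes did so, and below WT in 5, where 9.24% did.

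The 2 members under the stricter call were *fkbp5* and *olfm2b*. *fkbp5*, a co-chaperone of the glucocorticoid receptor that glucocorticoids induce, had 297, 490.4, 194 and 299 CPM in Het, 189, 235, 455 and 439 CPM in Hom, against 97.00, 161, 28.1 and 45.3 CPM in WT. All 8 mutants lay above the 4 WT fish, and the mean was 325 ± 121 CPM in mutants (SD, n = 8) and 82.97 ± 59.99 CPM in WT (SD, n = 4). Its log2 fold change was 1.98 (SE 0.44, edgeR FDR 0.00501). The stricter call was lost in 5 of 22 alternative fits, among them those without WT 79 (FDR 0.0171) and without WT 95 (FDR 0.0154), and the edgeR FDR over the alternatives ranged up to 0.0208. It was the only member of the 37 eligible genes of the glucocorticoid and heat shock list.

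*olfm2b*, an olfactomedin family gene on chromosome 1 from 59244159 to 59251874, had 52.9, 36.2, 26.5 and 24.2 CPM in Het, 3.16, 12.8, 47.1 and 24.1 CPM in Hom, against 224, 234, 85.9 and 139.8 CPM in WT. All mutants lay below the WT fish, with a log2 fold change of -2.61 (SE 0.44, edgeR FDR 0.00144), and the call was kept in all 22 alternatives. The gene lies within 10 Mb of *psen2*, and whether variants linked to *psen2* contribute to its difference was not tested. It is a member of the group that was lowest in Hom 78, where its value was the lowest of all. *pard6ga*, a polarity protein gene in the same group, had 20.8, 22.6, 3.44 and 8.24 CPM in Het, 0.979, 3.57, 17.3 and 17.1 CPM in Hom, against 44.5, 49.3, 37.7 and 44.2 CPM in WT. The mutants again lay below WT, with a log2 fold change of -1.91 (SE 0.50, edgeR FDR 0.0126), and WT fish were close to each other while mutants ranged widely. *kif26bb*, a kinesin family gene, and FGF8, a growth factor of the boundary between midbrain and hindbrain, also lay lower in every mutant than in any WT fish but missed the threshold (edgeR FDR 0.0505 and 0.0723). FGF8 had 7.82, 7.69, 2.53 and 4.72 CPM in Het, 0.544, 2.92, 7.83 and 6.12 CPM in Hom, against 12.2, 7.96, 8.85 and 12.1 CPM in WT. The fifth gene without overlap in this direction was ENSDARG00000096988, with an edgeR FDR of 0.0904.

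The other members at FDR under 0.05 overlapped between the genotypes in at least 1 fish. *CR788281.1* was higher in mutants (log2 fold change 1.80, SE 0.49, edgeR FDR 0.0141) and had 225, 263, 384 and 128 CPM in Het, 173, 106, 219 and 185 CPM in Hom, against 38.7, 14.3, 133 and 59.5 CPM in WT. WT 86 and WT 79 were lowest. *si:ch1073-235m4.3* (log2 fold change 1.26, SE 0.40, edgeR FDR 0.0285) and *zgc:73226* (log2 fold change 1.13, SE 0.39, edgeR FDR 0.0403) were likewise higher, and all 3 belong to a group in which WT 86 was the lowest WT fish in 5 of 6 genes. *vtg2* was lower in mutants (log2 fold change -2.49, SE 0.75, edgeR FDR 0.0236), with Het 84 and Hom 82 within the range of WT. *tnks1bp1*, of the TBR1 group, was lower as well (log2 fold change -1.62, SE 0.52, edgeR FDR 0.0312), and had 3.09, 3.54, 3.14 and 4.72 CPM in Het, 5.22, 9.51, 3.002 and 9.13 CPM in Hom, against 11.9, 40.96, 3.56 and 4.499 CPM in WT. PAX6 (log2 fold change -1.04, edgeR FDR 0.0485) and *si:ch211-198m17.1* (log2 fold change -1.64, edgeR FDR 0.0486) lay just inside the threshold and left it in 13 and 12 of 22 alternatives. Without WT 79, *CR788281.1* (edgeR FDR 0.0516) and *si:ch1073-235m4.3* (edgeR FDR 0.0821) missed the threshold. Without WT 86, *vtg2* (edgeR FDR 0.0983), *zgc:73226* (edgeR FDR 0.130) and *tnks1bp1* (log2 fold change -0.39, edgeR FDR 0.499) did. *tnks1bp1* missed it in 6 of 22 alternatives and *zgc:73226* in 7, with single fish left out of each genotype among them.

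The counts depended on which fish entered. Without WT 86, 5 members were at FDR under 0.05 (2.51%), beside 19.6% of all genes tested. Under the stricter rule 7 members were called without WT 88 (3.52%, beside 4.14% of all genes), 5 without WT 79 (2.51%, beside 1.29%) and 1 without WT 95 (0.503%, beside 2.62%). Without the 4 fish low in TBR1 (Het 84, Hom 83, WT 88 and WT 95), 23 of 195 members were at FDR under 0.05 (11.8%), beside 39.1% of all genes tested. Without the 2 fish low in HOXB5 (Hom 78 and WT 88) 20 of 198 were (10.1%), beside 33.9% of all genes tested. Without all 5 of these fish 30 of 192 were (15.6%), beside 40.0% of all genes. These fits were chosen after the data had been seen. Members that follow TBR1 or HOXB5 vary less in such a set by construction.

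**Figure D5:**
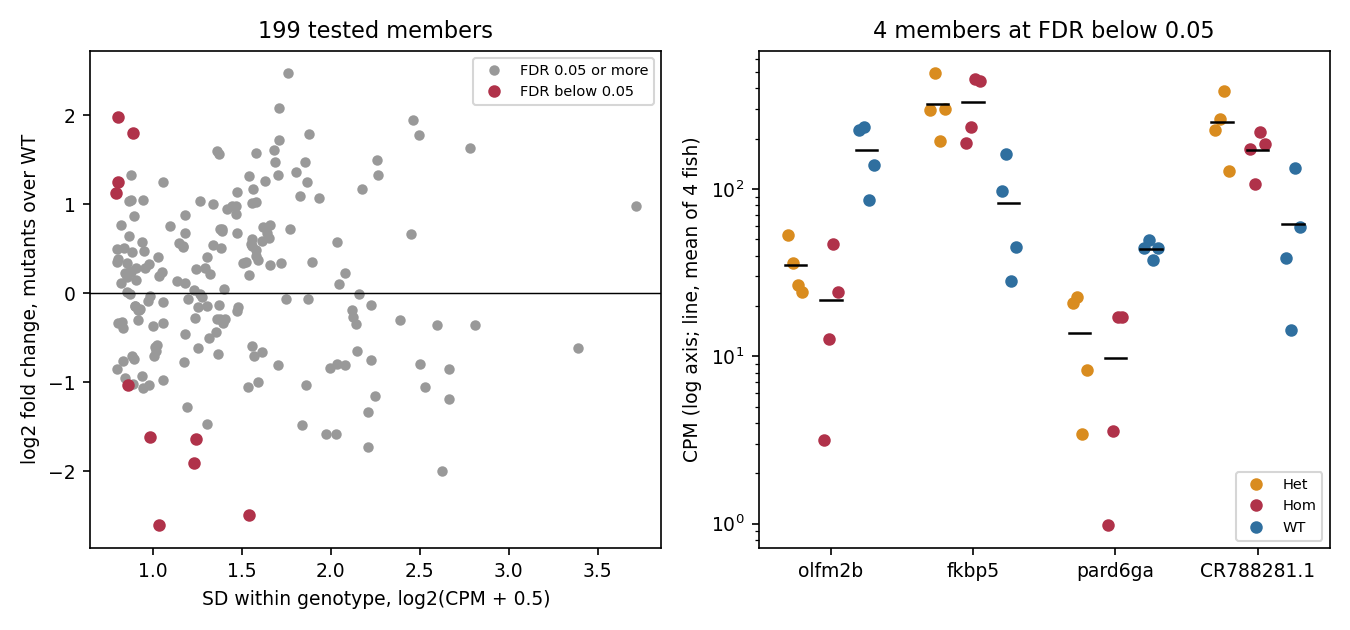
Log2 fold change of mutants over WT against the SD within genotype (log2 scale) for the 199 members tested, coloured by FDR (left), and CPM (log axis) per fish of 4 members at FDR under 0.05 with a line at the mean of 4 fish, Het and Hom left of WT (right). *fkbp5* and *CR788281.1* were higher in mutants, and *olfm2b* and *pard6ga* were lower.

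Between Hom and Het, no gene of 17149 was called at FDR under 0.05 by the quasi-likelihood test of edgeR (0%), and so no member was. At an unadjusted p under 0.05 there were 656 genes (3.83%) and 21 members (10.6%). With a robust prior there were 631 genes and 8 members. The members' share thus changed with the way the error was estimated, and nothing is read from it. DESeq2 called 7 genes and the likelihood-ratio test of edgeR called 8, none of them members. Hom and Het values did not overlap in 3.03% of all genes and in 0 members. The Hom mean of *krt5* was set by Hom 85.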

How the data were processed

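Brain RNA of 12 female zebrafish had been sequenced, with 1 library per fish and 4 fish per genotype. Ribosomal RNA (rRNA) had been depleted with mammalian sequences, and the paper reports that the rRNA left was considerable and varied between samples. It also reports a correlation, which it could not explain, between differential expression and rRNA content. The paper normalized for GC content and gene length. Neither that normalization nor rRNA content entered the fits here. The deposited counts are whole numbers of fragments for each Ensembl gene, not normalized. To obtain them the authors trimmed reads (cutadapt 1.14), aligned them to GRCz11 (STAR 2.7.0d) and counted with featureCounts (Subread 1.5.2), taking exonic fragments on the reverse strand whose mapping quality reached 10. A second deposited column, of the other unit, gives exonic gene length in bp and was used only for the length limit of the rule. Genotypes came from the sample labels. The column names carry a date common to all fish, whose meaning is not stated.

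CPM were computed over counts outside the mitochondrial chromosome, with a pseudocount of 0.5 before log2. The members and the gene lists were chosen with earlier results of these data known. A list symbol was matched without regard to case, also through older symbols, and a capital symbol also without its a or b suffix. Of 32057 identifiers 28988 had a symbol in the gene name table, and 4 members were named from the paper's list of genes. Genes named are the 15 members with the largest SD, members on a list, up to 10 called members, members of runs of 3, the genes at the limit of the 200, and *psen2*. Other genes were named after their values were seen, as were the HOX, DLX and EMX lists, the groups, the chromosome 22 sets and the criterion of a gap between 2 levels.

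Genotype was tested by quasi-likelihood F test in R 4.3.3 (edgeR 4.0.16 with limma 3.58.1) on genes with CPM over 1.5 in at least 4 fish, with TMM scaling and all 12 fish in a model of the 3 genotypes, and p-values were adjusted by Benjamini-Hochberg over all 17149 genes. The depth of 8834596 to 11938865 counts outside the mitochondrial chromosome sets the counting error given beside the SD, which assumes Poisson counts. The fits and the choice of members were tested on simulated data. Alternatives were DESeq2 1.42.0, a likelihood-ratio test in edgeR, scaling by upper quartiles, library sizes with mitochondrial counts, other filters, a robust prior, other pseudocounts and limits in the choice of members, the median absolute deviation, and each fish left out in turn. Leaving out the fish low in TBR1 or HOXB5 (below 0.5 of their genotype median) was an addition made once the data had been seen. Some members are not reported here.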

Additional observations from a re-analysis of the deposited data

Results flagged for a closer look

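The 15 members with the largest SD, the 10 members at FDR under 0.05, *psen2* and the summed HOX genes were examined, 27 items in all. A fish far from the other 3 of its genotype was sought by Dixon's criterion at 95%. It was met in 15 of 81 groups of 4 fish (18.5%). Chance gives about 1 in 20 in genes not chosen for their spread, a rate that does not apply here, and nothing is read from the number. For *si:ch211-213a13.1*, Het 81 stood apart at 0 CPM, against 36.6 to 60.8 CPM in the other Het fish, and Hom 83 at 68.4 CPM, against at most 0.108 CPM in the other Hom fish. For *mhc2dab*, Het 81 stood apart at 33.4 CPM, Hom 83 at 0.429 CPM and WT 79 at 0 CPM. For *nlrc11*, Het 84 stood apart at 33.3 CPM, Hom 82 at 0.108 CPM and WT 79 at 70.7 CPM. For its neighbour *si:ch211-181d7.2*, Hom 82 stood apart at 0.108 CPM and WT 79 at 33.96 CPM. ENSDARG00000071629 had 0 CPM in Het 81 and in WT 79, each apart from its genotype. *si:dkey-29p23.1* had 0 CPM in Hom 82, against 22.4 to 22.7 CPM in the other Hom fish. *si:ch211-281l24.3* had 210.2 CPM in WT 79, against 0.289 to 0.838 CPM in the other WT fish. The summed HOX genes had 3.70 CPM in Hom 78, against 170.2 to 194 CPM in the other Hom fish.

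Counts on the mitochondrial chromosome were not part of any comparison here. Their share of all counts averaged 39.1% in the 8 mutants, against 25.2% to 32.5% in the 4 WT fish.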

How the results depend on the processing

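Members called under the stricter rule numbered 2, and 5 with the likelihood-ratio test, 1 with a robust prior and 1 to 7 with each fish left out (5 without WT 79, 7 without WT 88, 1 without WT 95). They numbered 9 without the fish low in TBR1, 7 without those low in HOXB5 and 11 without both. Over all genes tested, the stricter call gave 426 genes, and 1163 with DESeq2, 1007 with the likelihood-ratio test, 161 to 707 with each fish left out (221 without WT 79, 161 without WT 86, 707 without WT 88), and 1076, 724 and 1076 without the fish low in TBR1, in HOXB5 and in either. At FDR under 0.05 the 10 members became 5 with a robust prior, 5 to 14 with each fish left out (5 without WT 86), and 23, 20 and 30 without those sets of fish, while the 5446 genes became 3351 to 5914 with each fish left out. Between Hom and Het, 7 genes were called by DESeq2, 8 by the likelihood-ratio test and 1, the member TTN (ENSDARG00000028213), without the 5 fish low in TBR1 or HOXB5. With each fish left out, 0 genes and 0 members were called in that comparison. Of the 200 members, 114 were chosen again at a mean of at least 10 CPM, 127 at a mean of at least 2 CPM and 171 to 191 with each fish left out. With CPM over all counts 139 were chosen again, and with the median absolute deviation 152. Without the fish low in TBR1, in HOXB5 and in either, 150, 160 and 136 were. With other pseudocounts, TMM scaling or no minimum length, 184 to 196 were. Pairs of neighbours numbered 9 within 50 kb and 38 within 500 kb. No log2 fold change of a called member changed sign in any alternative run. The share of members called under the stricter rule, 1.01% beside 2.48% of all genes, exceeded that of all genes without WT 79 (2.51% beside 1.29%), without WT 86 (1.01% beside 0.944%) and with at least 10 counts in every fish (3.23% beside 2.49%). No paired analysis was possible because each fish number occurs in only 1 genotype, so no replicate block could be fitted. Members near the floor, with 3 counts or fewer in at least 1 of the 12 fish, are limited by depth. A value of 0 there means no count, which is not told apart from a level of up to 3 counts.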
